A study of Drosophila melanogaster with 16 samples.

Results

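The odorant-binding protein (*Obp*) genes are followed here through the hearts of *Drosophila* potassium channel mutants and of their background strains. Members were all probesets, the sets of short probes that measure a transcript, whose only gene symbol in the platform annotation is Obp followed by a digit, and the choice used no measured value. They were 50 probesets of 47 genes, among 18769 probesets tested. Each array held RNA of 30 pooled hearts of 3-week-old adults, from which attached fat and tracheoles had been suctioned away. *sei* mutants (seits1, n = 5) carry a chemically induced allele with a stop codon ahead of the membrane-spanning region of the hERG-type channel, and were compared with their background Canton-S (*WtCS*, n = 5). *KCNQ* mutants (n = 3, KCNQ37 in the label, a number that lacks the last digit of the allele in the methods) came from an imprecise P-element excision that also puts a stop codon ahead of the membrane-spanning region, and were compared with a precise excision of that element in *w1118* flies (KCNQ97, here *WtPE*, n = 3). No group was treated, and every fly was mutant or control in all of its tissues, so a change cannot be assigned to a given cell type. Flies were kept apart by sex, but the sex on an array is not stated.

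Odorant-binding proteins are small secreted proteins that hold odorants and other greasy ligands in a pocket and are abundant in the fluid around the sensory neurons of antennae and taste organs. Several are made in the fat body, in glia or in the male reproductive tract, where a role in carrying lipids or other hydrophobic molecules is assumed. Most share a set of conserved cysteines. Plus-C proteins have more of them, Minus-C proteins lack a pair, and the Obp83cd and Obp83ef proteins consist of a doubled domain.

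Signals are given as log2 of the deposited intensity, so a difference of 1 is a doubling. Array medians lay between 10.2 and 12.3 intensity units, and arrays of a group correlated at 0.939 to 0.991 over all probesets. *Hand*, a transcription factor of heart cells, lay between 11.83 and 12.43 on all arrays. It is 1 of 11 heart muscle genes measured. Their mean log2 level ran from 8.42 to 8.83 in *WtCS* and 8.05 to 8.66 in *sei* hearts. It ran from 7.86 to 8.27 in *WtPE* and 7.70 to 8.06 in *KCNQ* hearts. Among these genes *tup* was lower than in *WtCS* both in *sei* hearts (-1.06 ± 0.23, adjusted p = 0.00679) and in *WtPE* (-1.07 ± 0.26, adjusted p = 0.0316). The *sei* probeset fell by 0.96 ± 0.25 (SE) in *sei* hearts (adjusted p = 0.0212), and *KCNQ* had no probeset with 1 symbol. The sample labels name no array run, and 3 runs were inferred here from array names in the study's supplement. The last 2 arrays of *WtCS* and of *sei* (replicates 4 and 5) belong to run A together with all *WtPE* and *KCNQ* arrays, the first 2 of *WtCS* to run B, and the first 3 of *sei* with the third of *WtCS* to run C. By the same names some arrays share a sample code (*WtCS* 2 with 3, *sei* 2 with 5, *sei* 3 with 4), though their titles say biological replicate. P-values may therefore measure only the spread between arrays, whose number limits the precision. In such tissue samples, fewer cells of a type and less RNA per cell cannot be told apart.

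Most *Obp* genes gave little signal in the heart and a few gave a great deal. Odorant and gustatory receptor genes, 125 probesets of 112 genes, served as a low reference, with a median mean log2 of 1.73 and a 95th percentile of 2.70. The mean over all arrays exceeded that percentile for 26 of the 50 *Obp* probesets (52%), and for 60.9% of all probesets. Mean log2 was at least 5 for 14 members, from 3 to 5 for 11, and below 3 for 25, of which 12 stayed below 3 on every array. Levels of different probesets depend on their probes and give no order of RNA amounts.

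At the top, *Obp99c* had log2 signals of 12.12, 12.06, 12.59, 12.13 and 12.29 in *WtCS* and 12.58, 12.68, 12.53, 12.43 and 12.50 in *sei* hearts. It read 11.97, 12.10 and 12.17 in *WtPE* and 12.13, 12.24 and 12.14 in *KCNQ* hearts, so *sei* arrays were the highest but for *WtCS* replicate 3, and the *sei* difference of 0.30 ± 0.14 did not pass the test (adjusted p = 0.182). *Obp99a* ranged from 8.94 to 11.10 over the 16 arrays with overlap between each mutant and its control, and its differences were 0.04 ± 0.39 in *sei* (adjusted p = 0.972) and 0.72 ± 0.51 in *KCNQ* hearts (adjusted p = 1). Both encode Minus-C proteins. All 6 Minus-C probesets measured, also *Obp8a*, *Obp44a*, *Obp99b* and *Obp99d*, had means above the receptors' 95th percentile (3.72 to 12.29). The 11 Plus-C probesets had means of 1.55 to 5.30, and 3 of them exceeded that percentile, *Obp93a*, *Obp49a* and *Obp46a*. *Obp46a* did so through the *sei* arrays alone, with 1.75 to 2.44 on all others. *Obp49a* read 6.75 on *WtCS* replicate 1 and 2.16 to 4.27 on the other arrays. The heat map of the members shows these tiers, and also genes that are dim on most arrays and bright in 1 genotype or on single arrays.

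**Figure D1:**
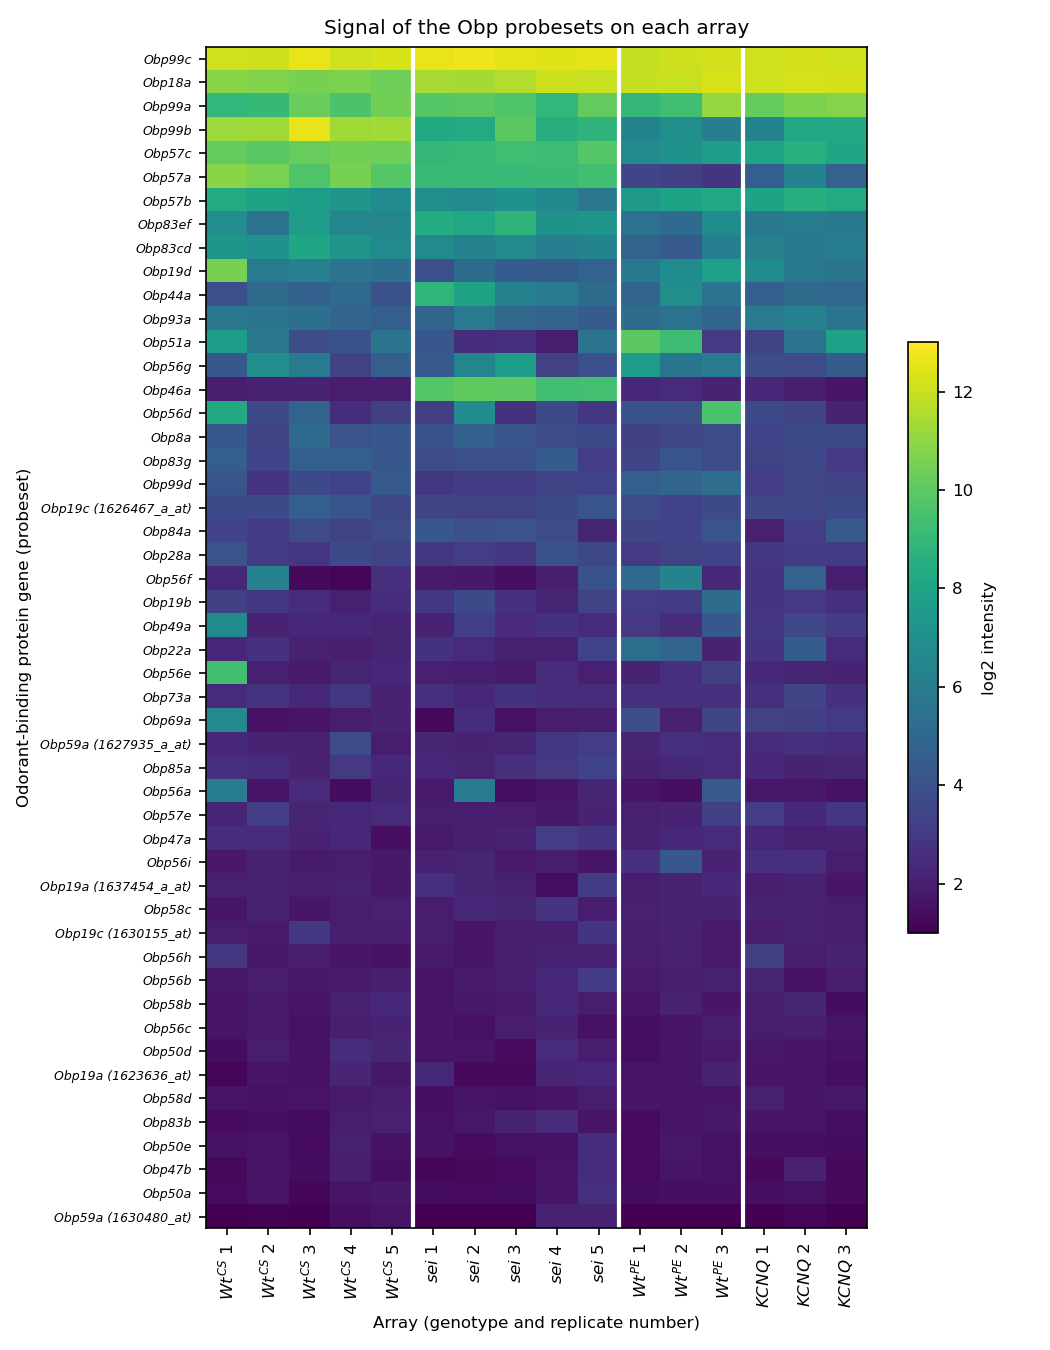
log2 intensity of the 50 *Obp* probesets (rows, by mean over all arrays, with the probeset named where a gene has several) on each of the 16 arrays (columns, white lines between genotypes). *Obp99c* and *Obp18a* were bright on every array, *Obp46a* was bright on the 5 *sei* arrays alone, and several dim genes were bright on 1 to 3 arrays.

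In *sei* hearts 4 *Obp* probesets rose and 4 fell against *WtCS*. This is 8 of 50, or 16%, where 11.1% of all probesets were called in this comparison at an adjusted p under 0.05. By direction, 8% of members rose where 6.47% of all probesets did, and 8% fell where 4.66% did. The median difference was -0.01 over the members and -0.02 over all probesets. Arrays of *sei* and *WtCS* did not overlap for 8 members (16%), where 7.17% of all probesets had no overlap. The count of calls depended on the arrays and the fit used. It was 5 (10%) when array run entered the fit, where 10.3% of all probesets were called. With arrays of the same sample code averaged it was 6 (12%), 4 higher and 2 lower, where 14.2% were called. The higher share of members was not seen in these fits. In run A by itself the count was 3 (6%, against 4.56%). It was 5 without *WtCS* replicate 1 (10%, against 8%), *WtCS* replicate 2 (10%, against 8.76%) or *sei* replicate 1 (10%, against 7.04%). Without *sei* replicate 2 it was 4 (8%, against 7.41%). Within run A and without each of these arrays, the share of all probesets called was lower too.

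*Obp46a*, a Plus-C gene, had the highest rise. Its log2 signal was 1.99, 2.11, 2.13, 1.91 and 2.00 in *WtCS*, and 9.86, 10.07, 10.03, 9.33 and 9.39 in *sei* hearts. It read 2.34, 2.44 and 2.13 in *WtPE* and 2.33, 2.02 and 1.75 in *KCNQ* hearts. The lowest *sei* array (9.33) was far above the highest of the other arrays (2.44), all of which were below the 95th percentile of the receptor genes. The difference was 7.71 ± 0.18 (adjusted p = 1.77e-13), a 209-fold change between a signal at the low reference and a bright one, and 5.43 after 16 was added to every intensity. With array run as a covariate it was 7.60, and within run A 7.40 (adjusted p = 2.29e-06). The *KCNQ* difference was -0.27 ± 0.23, and the difference of the effects of both mutations was 7.97 ± 0.29 (adjusted p = 2.06e-10). The background strains gave *Obp46a* about the same low signal, 0.27 ± 0.21 higher in *WtPE* (adjusted p = 0.656).

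*Obp46a* lies on chromosome 2R, as do *sei* and *KCNQ*, with 19 annotated genes between it and *KCNQ* and 2573 between it and *sei*. Of its neighbours within 5 places on either side 6 were measured. Their differences in *sei* hearts ran from -0.43 to 0.57, and none was called (the lowest adjusted p was 0.175, for *Ndg*).

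*Obp44a*, a Minus-C gene whose protein binds fatty acids and is made in glia, rose by 2.28 ± 0.57 in *sei* hearts (adjusted p = 0.0177). The arrays read 3.94, 5.16, 4.72, 5.11 and 3.96 in *WtCS*, and 8.86, 7.93, 6.30, 5.96 and 5.26 in *sei* hearts. Values in *WtPE* were 4.91, 6.91 and 5.64, and those in *KCNQ* hearts 4.67, 5.15 and 4.97. All *sei* arrays were above all *WtCS* arrays, but the *sei* values ran from 5.26 to 8.86, and the 3 of run C were the highest. Within run A the difference was 1.07 (adjusted p = 0.37), with run as a covariate 1.89 (adjusted p = 0.0773) and without *sei* replicate 2 2.02 (adjusted p = 0.0535). Glia markers had mean log2 levels of 5.15 to 6.80 in *WtCS* and 5.37 to 6.02 in *sei* hearts. Of the 6 glia genes measured none was called higher and 2 fell in *sei* hearts, the glial transcription factor gene *repo* by -2.07 ± 0.54 (adjusted p = 0.0208) and *Gli* by -1.38 ± 0.40 (adjusted p = 0.0379). Their part in the *Obp44a* values was not tested.

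*Obp83ef*, for a double-domain protein, read 6.89, 5.50, 7.65, 6.50 and 6.44 in *WtCS* and 8.36, 8.16, 8.82, 7.16 and 7.23 in *sei* hearts. *WtCS* replicate 3 exceeded *sei* replicates 4 and 5, so the groups overlapped. *WtPE* read 5.53, 5.20 and 6.80 and *KCNQ* 5.81, 6.04 and 5.81. The *sei* difference of 1.35 ± 0.41 passed the test narrowly (adjusted p = 0.0434), was 0.75 with run as a covariate (adjusted p = 0.209) and 0.72 within run A (adjusted p = 0.398), and lost the call when any of *WtCS* replicates 1, 2, 4 and 5 or *sei* replicates 1, 2 and 3 was left out (adjusted p from 0.0636 to 0.112). Beside it on 3R, *Obp83cd*, the other double-domain gene, differed the other way by -0.84 ± 0.30, which did not pass the test (adjusted p = 0.0891), with 7.35, 7.07, 8.11, 7.20 and 6.70 in *WtCS* and 6.71, 6.34, 6.65, 6.15 and 6.40 in *sei* hearts.

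*Obp18a* was bright everywhere and differed by small and even amounts. *WtCS* arrays read 10.86, 10.73, 10.55, 10.64 and 10.33, and *sei* arrays 11.41, 11.39, 11.60, 12.07 and 11.97. *WtPE* read 11.94, 11.98 and 12.27, and *KCNQ* 12.15, 12.29 and 12.21. The *WtCS* arrays were the lowest 5 of the 16. *Obp18a* rose by 1.07 ± 0.17 in *sei* hearts (adjusted p = 0.000836), by 1.54 within run A (adjusted p = 0.00347), and kept its call under each alternative tried. *WtPE* was also 1.44 ± 0.20 above *WtCS* (adjusted p = 0.000381), so the *sei* level lay nearer to that of the other background than to its own control.

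Of the genes that fell in *sei* hearts, *Obp99b* fell most. This Minus-C gene, also called *turn on sex-specificity*, is known from fat cells of the adult head, where it is higher in males. Its arrays read 11.24, 11.28, 12.62, 11.27 and 11.31 in *WtCS* and 8.27, 8.32, 9.98, 8.55 and 8.79 in *sei* hearts. *WtPE* read 6.43, 6.96 and 6.19, and *KCNQ* hearts 6.40, 8.16 and 8.26. The *WtCS* arrays were the highest 5 of the 16, and the third replicate was the highest of its group in both *WtCS* and *sei*, both of run C. The difference was -2.76 ± 0.40 (adjusted p = 0.000408), a 6.79-fold fall, and kept its call under each alternative tried (-3.11 to -2.49). Fat body markers, a list of 11 genes measured, had mean log2 levels of 9.94 to 10.61 in *WtCS* and 9.97 to 10.86 in *sei* hearts, ranges that overlap. By the brightest probeset of each gene, 2 of these rose in *sei* hearts and none was called lower. *AkhR*, for the receptor of adipokinetic hormone, rose by 1.70 ± 0.19 (adjusted p = 3.02e-05) and the lipid carrier gene *Apoltp* by 1.08 ± 0.27 (adjusted p = 0.0187). A dimmer *AkhR* probeset differed the other way and was not called (-0.59 ± 0.50, adjusted p = 0.545). The storage protein gene *Lsp2* differed by -3.90 ± 1.23 (adjusted p = 0.0524), with 3.01 to 4.14 on the *sei* arrays of run C and 8.43 and 11.12 on those of run A. The part of fat tissue in the *Obp99b* fall was not tested. The yolk proteins *Yp1*, *Yp2* and *Yp3*, female products of the fat body, lay between 11.95 and 13.29 on every array.

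The other 3 genes that fell, *Obp57c*, *Obp57b* and *Obp57a*, stand next to each other on chromosome 2R with no annotated gene between them. *Obp57a* read 10.88, 10.58, 9.70, 10.53 and 9.82 in *WtCS* and 9.15, 9.08, 9.12, 9.17 and 9.38 in *sei* hearts, a difference of -1.12 ± 0.31 (adjusted p = 0.031). *Obp57c* read 10.18, 9.87, 10.19, 10.46 and 10.35 against 9.01, 9.10, 9.30, 9.23 and 9.85, a difference of -0.91 ± 0.22 (adjusted p = 0.0138). For both genes every *sei* array was below every *WtCS* array. *Obp57b* read 8.35, 7.95, 7.71, 7.27 and 6.79 in *WtCS* and 6.94, 6.75, 7.14, 6.59 and 5.76 in *sei* hearts, with overlap, and differed by -0.98 ± 0.30 (adjusted p = 0.0457). Within run A none of the 3 was called, with differences of -0.90 (adjusted p = 0.412), -0.86 (adjusted p = 0.229) and -0.86 (adjusted p = 0.216) for *Obp57a*, *Obp57c* and *Obp57b*. The *Obp57a* call was lost with run as a covariate (-0.76, adjusted p = 0.202) and when any of *WtCS* replicates 1, 2 and 4 or *sei* replicates 1, 2 and 3 was left out, and the *Obp57b* call when any of *WtCS* replicates 1, 2 and 3 or *sei* replicates 1, 2, 4 and 5 was left out. *Obp57e*, which has 18 annotated genes between itself and *Obp57a* and is known for a part in the taste of fatty acids, stayed between 1.80 and 3.28 on all arrays.

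**Figure D2:**
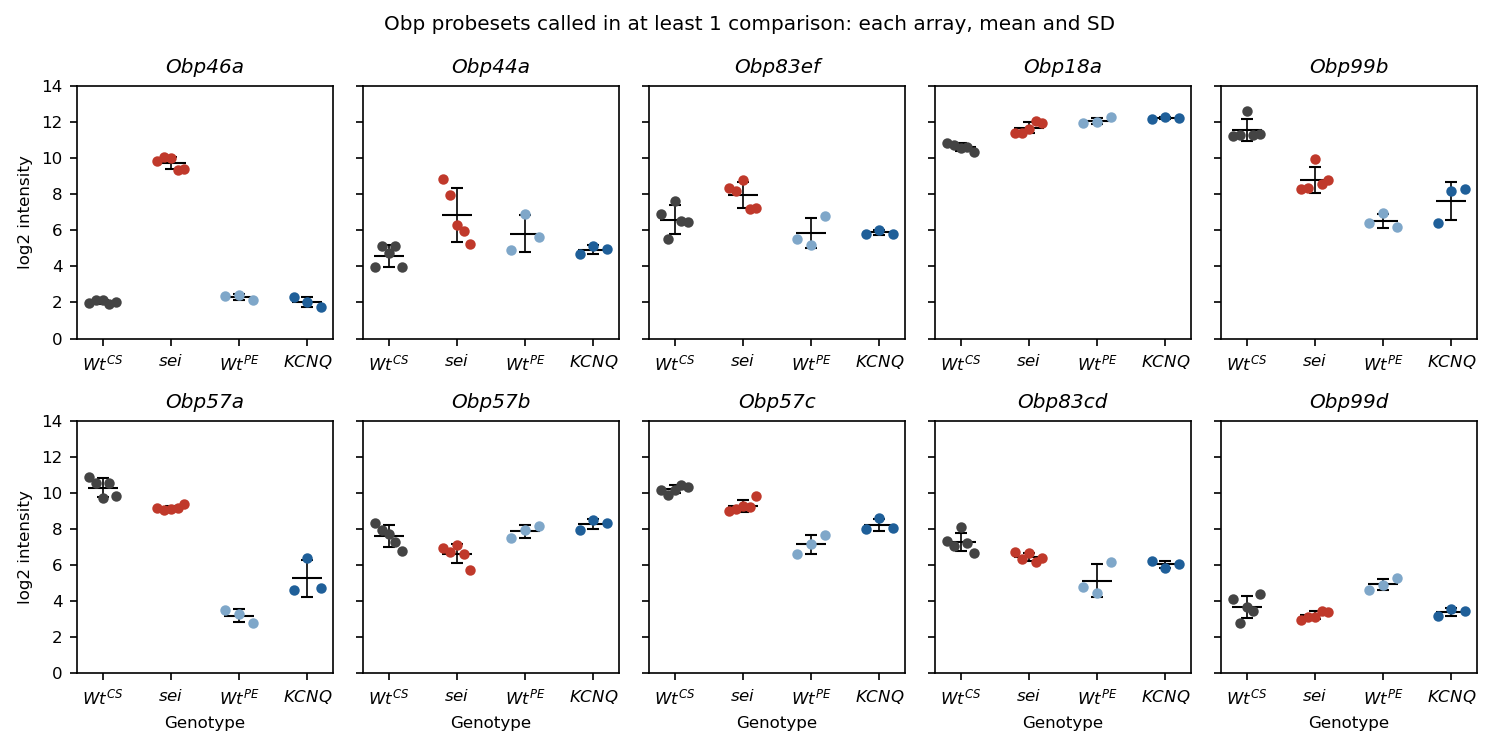
log2 intensity on each array (points), group mean and SD (bars) of the 10 *Obp* probesets called in at least 1 comparison, by genotype. *Obp46a* was high in *sei* hearts alone, whereas *Obp99b*, *Obp57a* and *Obp57c* were highest in *WtCS*, lower in *sei* and lowest in *WtPE* hearts.

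**Figure D3:**
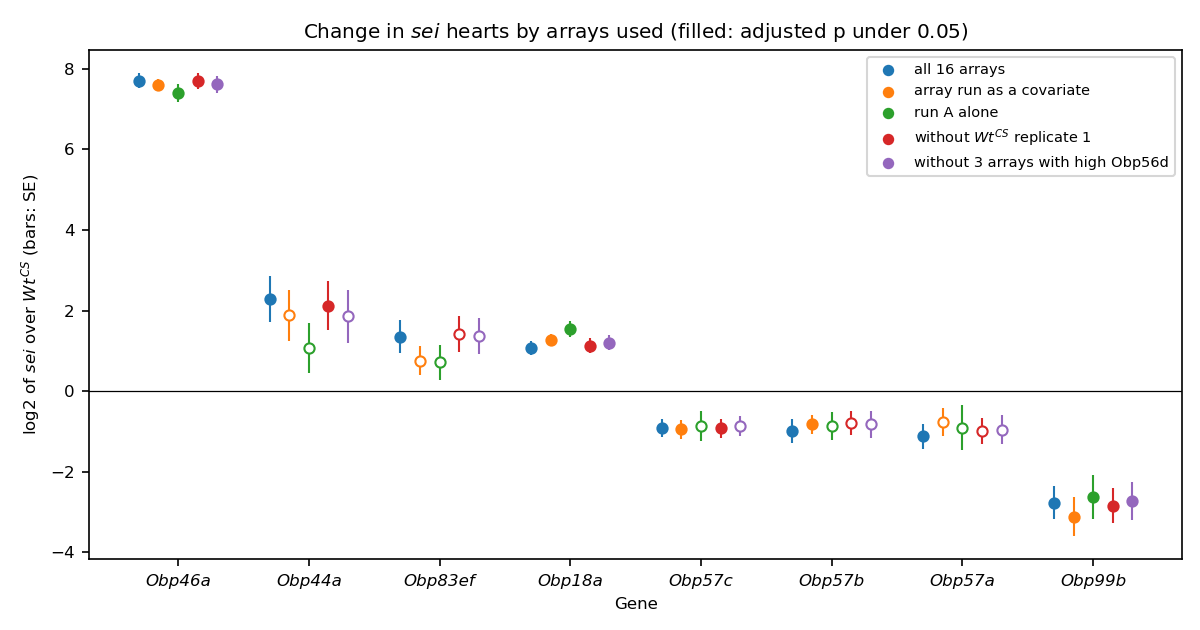
log2 difference of *sei* over *WtCS* with SE for the 8 *Obp* probesets called with all 16 arrays, beside the fit that includes array run, the fit of run A by itself, and the fits without *WtCS* replicate 1 and without 3 arrays on which *Obp56d* was high. Filled points have an adjusted p under 0.05, and *Obp46a*, *Obp18a* and *Obp99b* are filled in all 5.

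The control strains differed in *Obp* signal without either channel mutation. Between *WtPE* and *WtCS*, 2 *Obp* probesets were higher and 4 lower in *WtPE*, which is 6 of 50 or 12%, where 3.67% of all probesets were called (1.86% higher, 1.81% lower). The higher share of members was not seen in the fits that account for array run. It was 14% within run A, which holds arrays of both strains, against 12.7% of all probesets, and 20% against 19.2% with run as a covariate. Arrays did not overlap for 7 members (14%), where 10.6% of all probesets had none. *Obp57a* had means of 10.30 ± 0.51 (SD, n = 5) in *WtCS* and 3.20 ± 0.37 (SD, n = 3) in *WtPE*, from arrays at 3.51, 3.28 and 2.79. The difference was -7.11 ± 0.36 (adjusted p = 1.24e-08), from a bright signal to one near the low reference. *Obp99b* was lower in *WtPE* by -5.02 ± 0.47 (adjusted p = 6.45e-06), *Obp57c* by -3.06 ± 0.25 (adjusted p = 1.96e-06), with *WtPE* arrays at 6.63, 7.15 and 7.67, and *Obp83cd* by -2.15 ± 0.35 (adjusted p = 0.00201), with arrays at 4.81, 4.43 and 6.18. In contrast to its neighbours, *Obp57b* read 7.49, 7.97 and 8.19 in *WtPE* and overlapped with *WtCS* (0.26 ± 0.35, adjusted p = 0.858).

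*Obp18a*, given above, and *Obp99d* were higher in *WtPE*. *Obp99d*, a Minus-C gene near *Obp99b* on 3R, read 4.11, 2.79, 3.67, 3.43 and 4.41 in *WtCS*, and 4.64, 4.92 and 5.27 in *WtPE*, a difference of 1.26 ± 0.29 (adjusted p = 0.0248). This call was lost without *WtCS* replicate 4, *WtPE* replicate 2 or *WtPE* replicate 3 (adjusted p = 0.0582, 0.0946 and 0.133). The 5 *Obp* genes *Obp99b*, *Obp57a*, *Obp57c*, *Obp83cd* and *Obp18a* remained called within run A, and *Obp99d* did not (adjusted p = 0.0597). The other runs hold no *WtPE* array.

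None of the 50 *Obp* probesets was called in *KCNQ* hearts by limma at an adjusted p under 0.05 (0.17% of all probesets were), nor by the methods' t-test after adjustment. At an unadjusted p under 0.05 there were 6 (12%, where 2.81% of all probesets were), and 5 also passed a fold of 2 (10%, against 1.37%). Arrays of *KCNQ* and *WtPE* did not overlap for 7 members (14%), where 10.8% of all probesets had none. The median difference was -0.01 over the members and 0.01 over all probesets. *Obp57a* had the lowest p-value, with *KCNQ* arrays at 4.61, 6.42 and 4.76, all above the *WtPE* arrays, and a difference of 2.06 ± 0.41 (unadjusted p = 0.000119, adjusted p = 0.0636). It passed without *KCNQ* replicate 1 (adjusted p = 0.0467) and with run as a covariate (adjusted p = 0.0412). All arrays of both groups belong to run A, so the run term cannot change this difference and only alters the estimate of spread. With the adjustment taken over probesets with a mean log2 of 5 or more over all arrays, adjusted p was 0.0367. *Obp57a* reached that mean through *WtCS* (10.30) and *sei* hearts (9.18). Its means were 3.20 in *WtPE* and 5.26 in *KCNQ* hearts.

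*Obp57c* had *KCNQ* arrays at 8.02, 8.62 and 8.07, also above all *WtPE* arrays, with a difference of 1.09 ± 0.28 (adjusted p = 0.34). *Obp57b* had 7.96, 8.51 and 8.33, with overlap (0.38 ± 0.39, adjusted p = 1). *Obp83cd* read 6.25, 5.83 and 6.05, above *WtPE* replicates 1 and 2 and level with replicate 3, and differed by 0.90 ± 0.39 (adjusted p = 1), which was 0.55 without *WtPE* replicate 2 and 1.42 without *WtPE* replicate 3. *Obp99d* differed the other way, with *KCNQ* arrays at 3.16, 3.56 and 3.46 below every *WtPE* array (-1.54 ± 0.33, adjusted p = 0.104). The seminal fluid gene *Obp56g* read 7.64, 5.67 and 5.88 in *WtPE* and 3.82, 3.79 and 4.53 in *KCNQ* hearts (-2.35 ± 1.03, adjusted p = 1). *Obp19b* read 3.17, 3.15 and 5.24 in *WtPE* and 2.82, 2.98 and 2.68 in *KCNQ* hearts (-1.03 ± 0.48, adjusted p = 1), a difference that rested on *WtPE* replicate 3 and was -0.33 without it.

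Tested against each other, the effects of both mutations differed for 4 *Obp* probesets, 8% of the members, where 1.39% of all probesets were called. *Obp46a* was the 1 with the higher effect in *sei* hearts. By direction these were 2% of members higher and 6% lower, where 0.73% and 0.655% of all probesets were. The *sei* effect was the lower for *Obp99b* by -3.85 ± 0.66 (adjusted p = 0.00501), for *Obp57a* by -3.19 ± 0.51 (adjusted p = 0.0032) and for *Obp57c* by -2.00 ± 0.36 (adjusted p = 0.00701). In these 3 genes *sei* hearts were below a high *WtCS* level, while the mean of *KCNQ* hearts was above a low *WtPE* level. Within run A *Obp46a* and *Obp99b* remained called, while *Obp57a* (-2.96, adjusted p = 0.0928) and *Obp57c* (-1.95, adjusted p = 0.0901) did not. *Obp18a*, not called with all arrays (0.91 ± 0.28, adjusted p = 0.16), was called within run A (1.39, adjusted p = 0.0331) and with run as a covariate (1.12, adjusted p = 0.0189).

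**Figure D4:**
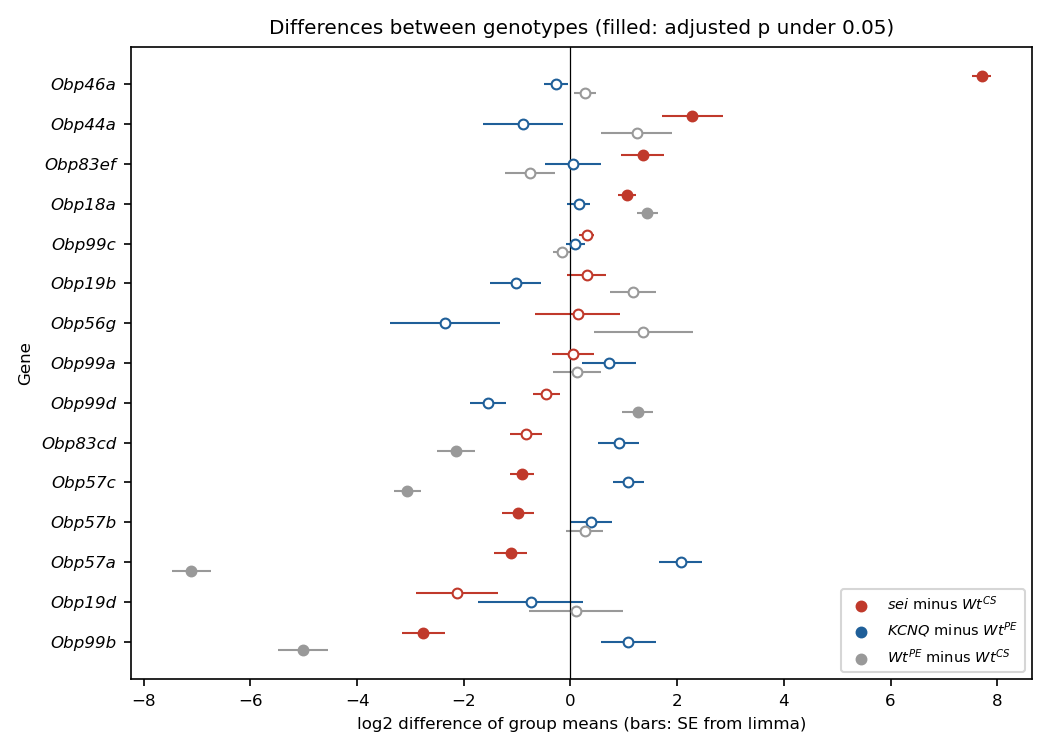
log2 differences with SE of the 15 *Obp* probesets described in full, for *sei* minus *WtCS*, *KCNQ* minus *WtPE* and *WtPE* minus *WtCS*, with points filled at an adjusted p under 0.05. *Obp57a*, *Obp57c* and *Obp99b* lie left of 0 for *sei* and for the strains and right of 0 for *KCNQ*, where no point is filled.

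A further set of *Obp* genes was dim on most arrays and bright on 1 to 3 of them, within genotypes. These genes, other than *Obp19d* and *Obp19b*, and the seminal fluid genes described after them, other than *Obp56g*, were picked after their values were seen. On *WtCS* replicate 1, 8 of the 50 members (16%) stood at least 4-fold above their median over the arrays, where 0.89% of all probesets did. *Obp56e* read 9.35 there and 1.85 to 3.26 on all others, *Obp69a*, an antennal gene, 6.64 against 1.27 to 3.86, and *Obp49a*, known from taste organs, 6.75 against 2.16 to 4.27. *Obp99b*, also 1 of the 8, stood at least 4-fold above its median on every *WtCS* array. *Obp56d* was high on *WtCS* replicate 1 (8.28), *sei* replicate 2 (6.86) and *WtPE* replicate 3 (9.59), and between 2.18 and 4.80 elsewhere. *Obp56a* was high on the same arrays, at 6.10, 5.99 and 4.37, and between 1.41 and 2.43 elsewhere.

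*Obp19d*, measured by a probeset whose probes match several transcripts, read 10.56 on *WtCS* replicate 1, 5.36 to 6.22 on the other *WtCS* arrays and 3.94 to 5.25 on *sei* arrays. Its *sei* difference of -2.13 ± 0.76 did not pass the test (adjusted p = 0.0871), was -1.17 without *WtCS* replicate 1 (adjusted p = 0.067), and passed without all 3 of the arrays above (-1.33, adjusted p = 0.0321). On *WtPE* replicate 3 it read 7.75, the highest of its group, as did *Obp19b* (5.24). There 4 members (8%) stood at least 4-fold above their median, against 0.314% of all probesets.

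Genes of other chemosensory families moved with some of these arrays. *CheA75a*, of a family of secreted proteins of gustatory bristles, read 6.37 on *sei* replicate 2 and 6.06 on *WtPE* replicate 3, but 1.91 on *WtCS* replicate 1, against 1.22 to 2.55 on all the others. *CheA84a*, at 4.78 and 4.90 on those arrays, was 1.36 on *WtCS* replicate 1. The co-receptor *Orco*, which marks olfactory neurons, stayed between 1.86 and 3.87 on all arrays. Without those 3 arrays 4 *Obp* probesets were called in *sei* hearts (4.87% of all probesets) and 7 between the strains (2.07%).

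The 5 *Obp* genes listed here as seminal fluid genes varied between arrays in another way. This list comes from general knowledge and may leave out others. *Obp51a* read 9.97 and 9.26 on *WtPE* replicates 1 and 2 but 3.02 on replicate 3, and 3.34, 5.47 and 7.87 in *KCNQ* hearts. *Obp22a* was high on *WtPE* replicates 1 and 2 (5.33 and 4.90) and *KCNQ* replicate 2 (4.48), against 1.99 to 3.42 elsewhere. *Obp56f* was highest on *WtPE* replicate 2 (6.38) and *WtCS* replicate 2 (6.34), and *Obp56i* reached 4.25 on *WtPE* replicate 2 and 1.69 to 2.68 on the others. None of the 5 seminal fluid *Obp* probesets, with *Obp56g*, was called by limma in any of the 4 comparisons. Without adjustment, *Obp56g* in *KCNQ* hearts, and *Obp22a* and *Obp56i* between the strains, had a p under 0.05, and after it their values were 1, 0.106 and 0.103.

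Male accessory gland and duct markers, a list of 17 genes, were highest on *WtPE* replicates 1 and 2 and on *KCNQ* replicate 2. Their mean log2 level ran from 3.44 to 4.10 in *WtCS* and from 3.16 to 4.84 in *sei* hearts, was 6.96, 7.05 and 3.85 in *WtPE* and 4.68, 6.58 and 4.06 in *KCNQ* hearts. *Dup99B*, an ejaculatory duct peptide gene next to *Obp99b* on 3R, read 9.06 and 8.33 on *WtPE* replicates 1 and 2, 1.65 on replicate 3 and 7.89 on *KCNQ* replicate 3, while *Obp99b* itself read 6.43, 6.96, 6.19 and 8.26 on these arrays. Some seminal fluid genes were also bright on arrays where the mean of these markers was low, though not every marker was. *Obp51a* read 7.68 on *WtCS* replicate 1 (marker mean 3.81) and 7.87 on *KCNQ* replicate 3 (4.06). *Dup99B*, 1 of the 17 markers, read 6.06 and 7.89 on these arrays. *Obp56g* had its highest value, 7.70, on *sei* replicate 3 (3.58) and read 6.98 on *WtCS* replicate 2 (4.10). *Dup99B* read 3.10 and 4.71 there, but the other markers were not alike. On the same arrays *Acp53C14b* read 6.02 and 8.10, and *Acp76A* 1.69 and 2.42. *Acp95EF* lay between 9.69 and 10.61 on every array. What part such tissue has in the seminal fluid *Obp* signals was not tested.

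**Figure D5:**
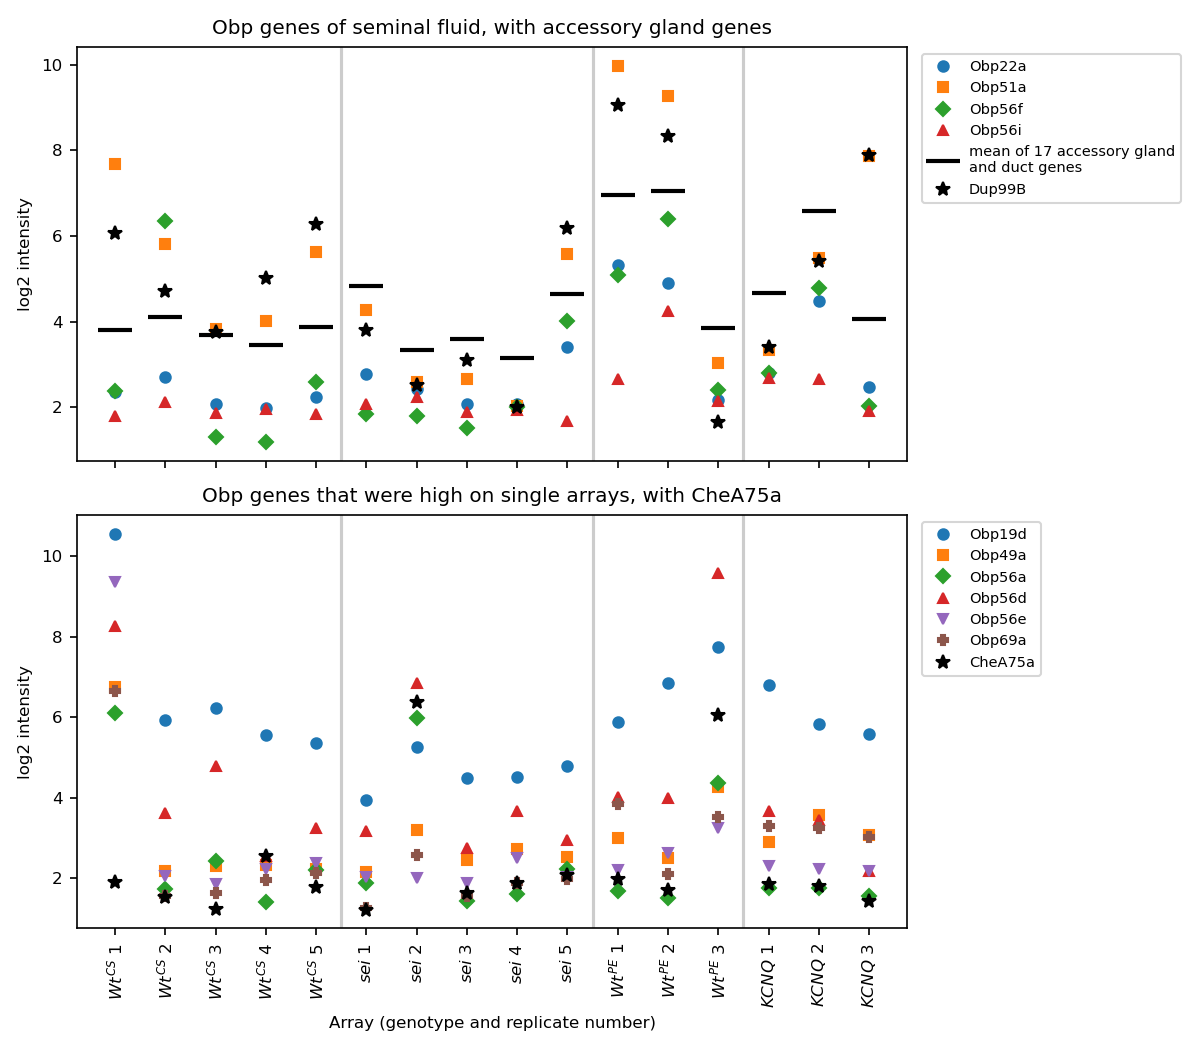
log2 intensity by array of (top) 4 seminal fluid *Obp* genes with the mean of 17 accessory gland and duct genes (black lines) and *Dup99B* (stars), and (bottom) 6 *Obp* genes that were bright on single arrays with *CheA75a* (stars). Each of these 4 seminal fluid genes has its highest value on *WtPE* replicate 1 or 2, and the others are high on some or all of *WtCS* replicate 1, *sei* replicate 2 and *WtPE* replicate 3.

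The other 35 probesets were called in none of the comparisons, with adjusted p-values of at least 0.179 for *sei* and 0.103 between the strains. Their differences ran from -1.96 to 0.36 in *sei* and from -2.76 to 0.72 in *KCNQ* hearts, with the lowest at *Obp51a* and at *Obp56d*. Of these 35, 17 lay above and 18 below 0 in *sei* hearts, and 14 above and 21 below in *KCNQ* hearts. Without adjustment, 12 members (24%) had a p under 0.05 for *sei*, where 24.3% of all probesets did, and 1 of them, *Obp57e*, was among these 35. Its signal stays near the low reference. For *KCNQ* none of the 6 was among them.

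Of the 47 *Obp* genes 26 lie on chromosome 2R, 11 on 3R, 6 on X, 2 on 2L and 2 on 3L. The 8 probesets called in *sei* hearts were 5 of 2R, 2 of 3R and 1 of X, and the 6 called between the strains were 2 of 2R, 3 of 3R and 1 of X.

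Among other carriers and chemosensory partners, a list of 32 genes measured and counted by the brightest probeset of each, 2 rose and 1 fell in *sei* hearts, where 11.1% of all probesets were called, and 1 was lower in *WtPE*. The lipocalin gene *Karl*, not called by its brighter probeset (-0.71, adjusted p = 0.197), was called lower in *sei* hearts by the other (-1.15 ± 0.24, adjusted p = 0.00532). *Snmp1*, a membrane protein needed to detect a pheromone, read 4.96, 4.81, 5.38, 5.23 and 4.52 in *WtCS* and 7.52, 5.98, 7.29, 8.56 and 8.69 in *sei* hearts, a rise of 2.63 ± 0.42 (adjusted p = 0.00089) with no overlap, and its effects in both mutants differed by 3.12 ± 0.69 (adjusted p = 0.0293). The sterol-binding protein genes *Npc2g* and *Npc2a* moved apart, *Npc2g* by 0.86 ± 0.17 (adjusted p = 0.00417) and *Npc2a* by -0.62 ± 0.14 (adjusted p = 0.01). *lush*, which encodes the odorant-binding protein of the same pheromone but is no member by its symbol, read 4.42, 4.66, 5.09, 3.09 and 4.86 in *WtCS* and 6.90, 6.58, 6.29, 4.35 and 4.63 in *sei* hearts. Its 3 *sei* arrays of run C were the highest of all and the other *sei* arrays lay within the *WtCS* range, and the difference of 1.33 ± 0.50 did not pass the test (adjusted p = 0.108).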

How the data were processed

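RNA of 16 heart samples was hybridised to Affymetrix Drosophila Genome 2.0 arrays. The authors used affyQCReport for quality control and AltAnalyze for RMA, which corrects background, normalizes between arrays and combines probes, and the deposited values are linear intensities, 1 per probeset and array. Their log2 was taken. Of 18952 probesets, 183 controls were left out. Of 18769 tested, 13647 had 1 symbol in the platform annotation, and 4 probesets naming an *Obp* among several symbols were not members. All 47 *Obp* genes matched RefSeq's table for the assembly Release 6 plus ISO1 MT, used for names, chromosomes and gene order only.

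Group means were fitted by limma 3.58.1 under R 4.3.3 (12 residual and 3.68 prior degrees of freedom). Adjustment was by Benjamini and Hochberg over all 18769 probesets, with calls under 0.05. Values after ± are SE for differences and SD for means. Probesets described in full are the 10 called in any comparison, those that changed over 2-fold in a mutant with an unadjusted p under 0.05, and the 6 with the highest mean, 15 in all. *Obp* classes come from general knowledge. The members and lists were chosen with earlier results of these data known. The fit was tested on simulated data. Alternatives were Student's t-test, a fit of each pair of groups, a robust variance prior with an intensity trend, and a second quantile normalization. Others were a common 75th percentile, 16 added to each intensity, bright probesets only (mean log2 of 5 or more), array run in the fit, and run A by itself. The rest were a block for the replicate number, averaged sample codes, each array left out, and 3 arrays left out together. Leaving out these 3 together was added after seeing the data.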

Additional observations from a re-analysis of the deposited data

Results flagged for a closer look

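Among 100 groups of 5 arrays tested, 20 had 1 array far from the other 4 (Dixon's test), where chance gives about 1 in 20. The share over all probesets was not computed. All members share the same arrays, so these tests are not independent, and the count cannot be read as a trait of *Obp* genes. *WtCS* replicate 1 was the outlying array 6 times, high for *Obp19d* (10.6), *Obp56e* (9.35), *Obp49a* (6.75), *Obp69a* (6.64), *Obp56a* (6.10) and *Obp56h* (2.96). *sei* replicate 2 was high for *Obp56d* (6.86) and *Obp56a* (5.99). *sei* replicate 5 was high for *Obp56f* (4.01), *Obp50a* (2.62), *Obp50e* (2.59) and *Obp19c* (2.87), and low for *Obp84a* (2.24). *WtCS* replicate 2 was high for *Obp56f* (6.34) and *Obp57e* (3.19), and *WtCS* replicate 3 for *Obp99b* (12.6) and *Obp19c* (2.92). *WtCS* replicate 4 was high for *Obp59a* (3.77), *WtCS* replicate 5 low for *Obp19a* (1.77), and *sei* replicate 4 high for *Obp56e* (2.50). Values of about 3 or less are near the signal of the receptor genes.

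The *sei* and *KCNQ* effects differed by the test of the difference for *Obp46a* (7.97), *Obp99b* (-3.85), *Obp57a* (-3.19) and *Obp57c* (-2.00).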

How the results depend on the processing

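None of the 34 changes of single *Obp* genes followed through the alternatives turned its direction. Of 742 values, 676 stayed on their side of the threshold, 53 lost a call and 13 gained one. In *sei* hearts 8 *Obp* probesets were called (16% of members, against 11.1% of all probesets). By Student's t-test there were 5 (10%, against 3.18%), and 5 when array run entered the fit (10%, against 10.3%). There were 3 in run A by itself (6%, against 4.56%) and 6 with sample codes averaged (12%, against 14.2%). Without *WtCS* replicate 1, *sei* replicate 2 and *WtPE* replicate 3, a choice made after seeing the data, there were 4 (8%, against 4.87%). Against 0 in *KCNQ* hearts there was 1, *Obp57a*, when only probesets with a mean log2 of 5 or more were tested (0.391% of these were called). *Obp57a* reached that mean through *WtCS* and *sei* hearts. There was also 1 with run as a covariate (0.352% of all probesets). The run term cannot change this difference, because all these arrays belong to run A. Between the strains there were 10 with run as a covariate (20%, where 19.2% of all probesets were called), against 6. Fewer arrays enter the fits within run A and without 3 arrays. The cause of the other shifts was not tested. Leaving out 1 array gave 4 to 7 calls in *sei* hearts (7.04% to 14.2% of all probesets) and 0 to 1 in *KCNQ* hearts (0.112% to 0.277%). It gave 4 to 5 for the difference of the effects (0.954% to 2.26%) and 5 to 7 between the strains (1.72% to 4.44%). Scaling moved the median of all probesets by under 0.1. The replicate numbers were not taken as pairs, because no label ties them to a shared source and not every same-numbered pair deviated together. For *sei* with *WtCS* the deviations correlated at 0.09 and 0.03 for replicates 1 and 2, whose arrays come from different runs, and at 0.53, 0.21 and 0.23 for replicates 3 to 5, where the arrays of a pair share a run, and for *KCNQ* with *WtPE* at -0.04 to 0.08. With the replicate number as a block there were 9, 0, 5 and 6 calls in the 4 comparisons. Of all probesets 14.4%, 0.186%, 1.7% and 3.88% were called. In that fit *Obp83cd* gained a call in *sei* hearts (adjusted p = 0.036) and for the difference of the effects (adjusted p = 0.0475). Dim probesets near the receptor signal limit what can be read for the 24 probesets at or below its 95th percentile.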
